A study of Mus musculus with 2 samples.

Results

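Single-cell RNA sequencing of 2 mouse mammary tumors yielded a small group of fibroblasts in which genes of a set led by Cxcl13 outnumbered those of 3 other fibroblast sets. The group held 91 cells, 46 in the Dll1+ and 45 in the Dll1- tumor, out of 1086 fibroblasts (408 and 678) and 21702 cells kept in all (10581 and 11121). A fibroblast had at least 2 UMIs (unique molecular identifiers, each standing for 1 captured transcript) of at least 3 of the genes Col3a1, Dcn, Lum, Dpt and Pdgfra, with fewer than 3 UMIs of the pericyte gene Rgs5, none of the endothelial gene Cdh5 and fewer than 2 of the basal keratin gene Krt5. In each such cell the detected genes of 4 sets of 5 were counted, and the cell was taken when the set of Cxcl13, Barx2, Crocc2, Col28a1 and Cyp7b1 alone had the highest count. The other sets were Tagln, Acta2, Thbs4, Cpxm2 and Ltbp2 (called M here), Smpd3, Thbd, Procr, Pcolce2 and Scara5 (P), and Il1rl1, Ret, Tnfrsf11b, F2rl1 and Adgrg2 (L). The cells so chosen are called Cxcl13-set fibroblasts below. They were chosen on their measured expression, so their levels against other cells are given as descriptions.

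Both tumors were untreated, and 1 library was made from each. Cells were released with collagenase and hyaluronidase, stained for CD31, CD45 and Ter119, which mark endothelium, leukocytes and erythroid cells, and sorted as live CD45- cells before 10x Single Cell v3 library preparation, per the labels. The labels used here do not state the strain or age of the mice, nor what made a tumor count as Dll1+ or Dll1-. With 1 library per tumor no test of a difference is possible, and all intervals are 95% intervals that cover counting error only.

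Fibroblasts build the collagen and proteoglycan matrix of a tissue. Some of them also secrete chemokines, complement and acute phase proteins, and tumor fibroblasts with that secretory profile are often called inflammatory. Cxcl13 is the chemokine that draws CXCR5-bearing B cells and follicular helper T cells, and in lymphoid organs it is made by stromal cells of the follicle. Apoe, the other gene of the working name of these cells, encodes an apolipoprotein, a protein of the particles that carry cholesterol between cells.

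The libraries held 13819 and 13097 barcodes with 117230907 and 135960457 UMIs. The Cxcl13-set fibroblasts had a median of 10428.5 UMIs per cell in the Dll1+ and 7741 in the Dll1- tumor, against 9879.5 and 7478 in all fibroblasts. Their sums, 535518 and 416492 UMIs, are the basis of the levels below, which are UMIs of a gene per 1000000 UMIs of the cells summed (CPM). A count of 0 in these sums allows a level of up to 5.60 CPM in Dll1+ and 7.20 CPM in the Dll1- tumor, taken as 3 UMIs. Among 56 barcodes kept in both libraries, 0 belonged to the Cxcl13-set fibroblasts of the Dll1+ and 1 to those of the Dll1- tumor. Dll1 itself, a membrane ligand of Notch receptors, stood at 49.0 CPM in epithelial cells of the Dll1+ and 4.71 CPM in those of the Dll1- tumor, which goes with the labels, and the Cxcl13-set fibroblasts held 4 and 0 UMIs of it.

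The Cxcl13-set fibroblasts made up 11.3% of the Dll1+ fibroblasts (exact binomial interval 8.37% to 14.8%) and 6.64% of the Dll1- fibroblasts (4.88% to 8.78%). As shares of all kept cells, they were 0.435% (0.318% to 0.579%) and 0.405% (0.295% to 0.541%). The 2 denominators therefore gave different pictures: the share among fibroblasts was higher in the Dll1+ tumor, while the share of all kept cells was nearly the same. The other fibroblasts differed in make-up, with 137 and 43 cells of the M set, 112 and 478 of the P set, 23 and 28 of the L set, 78 and 79 tied cells, and 12 and 5 cells with no gene of any set. With a minimum of 2000 UMIs the shares of fibroblasts were 11.3% and 6.73%, and with every cell thinned to 2000 UMIs they were 11.5% and 7.95%. The part of the sort on CD45 was not tested.

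The rule separated these cells by a narrow margin. The set of Cxcl13 led by 1 gene in 22 of the 46 Dll1+ and 26 of the 45 Dll1- cells, and by 3 genes in 3 and 2 cells. Just outside the rule stood 46 and 49 cells in which it tied for the lead, and 47 and 59 in which it was 1 gene behind. In the Dll1+ tumor the level of Cxcl12, which the rule did not read, was 1649 CPM in cells 1 gene behind, 1627 CPM in tied cells, 3073 CPM in cells ahead by 1 and 2730 CPM in cells ahead by more. In the Dll1- tumor those levels were 1021, 936, 2028 and 3582 CPM. Apoe did not step at the threshold in the same way. It stood at 139, 338, 330 and 286 CPM in the Dll1+ and at 222, 467, 361 and 887 CPM in the Dll1- tumor, so tied cells already held as much Apoe as cells ahead by 1.

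Of the genes that chose the cells, Cxcl13 was detected in 15 of 46 Dll1+ cells (32.6%) and 15 of 45 Dll1- cells (33.3%). Its summed level was 243 (203 to 288) CPM in Dll1+ and 595 (524 to 674) CPM in the Dll1- tumor, against 28.3 and 45.0 CPM in the other fibroblasts, of which 3.31% and 14.1% had a UMI. So most cells of the group had no Cxcl13 UMI, and a few had many: the highest cell held 122 Cxcl13 UMIs per 10000 of its own in the Dll1+ and 81.4 in the Dll1- tumor, where the median was 0 in both. That 1 cell gave 52.3% of the Dll1+ Cxcl13 UMIs, and 1 Dll1- cell gave 25.4%. Epithelial cells, at median depths of 10126 and 11546 UMIs, had a Cxcl13 UMI in 0.0520% and 0.155% of cells, a share read as background. After thinning each cell to 2000 UMIs, 13.3% and 29.5% of the Cxcl13-set fibroblasts kept one.

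Cxcl13 lies on the plus strand of chr5:95956951-95961068 of mm10 as a protein-coding gene. Its promoter is printed here because it held a match to TTGCNNAA, letters bound by C/EBP factors, which drive acute phase genes. Promoters of Mmp3 and Rasl11a, which were among the genes highest in these cells against other fibroblasts, held one as well, and they are printed for the position of the match. Each sequence is the 250 bases before the start of the gene in RefSeq on GRCm38.p6, 5′ to 3′, with the match in capitals. The windows are chr5:95956689-95956938 on the plus strand for Cxcl13, chr9:7445572-7445821 on the plus strand for Mmp3 and chr5:146844821-146845070 on the plus strand for Rasl11a.
Cxcl13: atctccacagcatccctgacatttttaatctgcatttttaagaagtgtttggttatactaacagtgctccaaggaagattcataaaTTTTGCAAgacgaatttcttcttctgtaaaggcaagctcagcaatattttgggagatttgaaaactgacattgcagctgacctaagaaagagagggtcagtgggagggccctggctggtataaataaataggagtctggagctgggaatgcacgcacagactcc
Mmp3: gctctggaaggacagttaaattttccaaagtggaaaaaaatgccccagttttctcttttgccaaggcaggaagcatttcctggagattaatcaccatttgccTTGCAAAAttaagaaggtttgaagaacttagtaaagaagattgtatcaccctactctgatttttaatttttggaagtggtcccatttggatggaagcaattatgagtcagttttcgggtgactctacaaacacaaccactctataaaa
Rasl11a: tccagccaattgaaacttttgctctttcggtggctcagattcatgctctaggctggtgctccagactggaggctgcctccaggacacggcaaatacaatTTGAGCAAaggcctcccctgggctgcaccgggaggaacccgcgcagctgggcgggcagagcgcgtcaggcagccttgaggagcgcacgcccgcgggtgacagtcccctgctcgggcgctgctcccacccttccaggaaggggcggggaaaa
The match began 164 bases before the start of Cxcl13, 148 before that of Mmp3 and 151 before that of Rasl11a. The motif was searched on both strands, and 3142 of 32851 promoters of this length (9.56%) held it. Of the 12 genes highest over other fibroblasts, 9 had a listed promoter and 4 of those held TTGCNNAA (Il1r1, Mmp3, Rasl11a and Saa3). That count is of genes and the 9.56% is of promoters, and Il1r1 and Lifr had more than 1 promoter each, so the shares are not alike. Of the 5 genes of the Cxcl13 set, 3 had a listed promoter and 1 held the motif (Cxcl13). No Apoe promoter held it. A pattern bound by NF-kB, read as GGG, any 2 letters, TTT and CC and searched in the same way, was in 464 of all promoters (1.41%) and in 0 of the 9. A match is a run of letters and no evidence that a factor binds there.

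The other genes of the Cxcl13 set were detected more often than Cxcl13 at full depth. After thinning their shares lay between 15.9% (Barx2, Dll1-) and 33.3% (Crocc2, Dll1+), so in the Dll1- tumor each was then under the 29.5% of Cxcl13. Barx2, a homeobox transcription factor, stood at 133 CPM in Dll1+ and 69.6 CPM in Dll1- cells and was detected in 67.4% and 42.2% of them. It was found in epithelial cells as well: 27.4% of Dll1+ and 6.32% of Dll1- epithelial cells had a UMI. Crocc2, which encodes a ciliary rootlet protein, stood at 232 and 103 CPM. Col28a1, a beaded-filament type collagen, stood at 114 and 158 CPM and was detected in 54.3% and 68.9%. Cyp7b1, an oxysterol hydroxylase, stood at 138 and 178 CPM and was detected in 69.6% and 71.1%. In epithelial cells Crocc2, Col28a1 and Cyp7b1 were found in 0.0650%, 0.0650% and 0.611% (Dll1+) and 0.0444%, 0.155% and 0.211% (Dll1-). Cells with exactly 2 of the 5 genes were the most common kind in both tumors, 17 and 19 cells, and 1 cell in each tumor had all 5.

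Each of the 5 genes was then read in cells chosen without it. Every cell so chosen was also among the Cxcl13-set fibroblasts, and the set was drawn up with results of these data known. The values below are therefore a description and no independent check of the set. When Cxcl13 was left out, the remaining 4 genes chose 39 Dll1+ and 40 Dll1- cells. Cxcl13 was then detected in 20.5% of the chosen Dll1+ cells and 5.15% of the rest, but its summed level was 42.6 against 55.0 CPM, with 223 UMIs in the rest, 68 of them in 1 cell. In the Dll1- tumor the level was 606 CPM in the chosen cells and 47.9 CPM in the rest, 12.6-fold apart, while the exact intervals of the detected shares overlapped, at 12.7% to 41.2% and 12.1% to 17.7%. The other 4 genes, each left out in turn, were 3.48- to 7.0-fold higher in the chosen Dll1+ cells and 2.91- to 6.16-fold higher in the chosen Dll1- cells.

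Apoe, at chr7:19696109-19699188 on the minus strand of mm10, was not read by the rule. It stood at 304 (259 to 355) CPM in Dll1+ and 571 (501 to 649) CPM in Dll1- Cxcl13-set fibroblasts, against 136 and 107 CPM in the other fibroblasts. On the log2 scale of CPM plus 1, used for every ratio below, it was 1.15 higher (0.90 to 1.41) in the Dll1+ and 2.41 higher (2.20 to 2.64) in the Dll1- tumor. A UMI was found in 16 of 46 cells (34.8%) and 23 of 45 (51.1%), or 26.7% and 34.1% after thinning. Epithelial cells had one in 17.5% and 8.0%. Whether that is free RNA or expression in those cells was not tested, and shares of that size in fibroblasts are not told apart from background. The Dll1+ difference rested on few cells, 1 of which gave 26.4% of the UMIs (in the Dll1- tumor, 16.8%). It was 0.73 without the highest cell and -0.22 when fibroblasts with at least 2 UMIs over the epithelial, macrophage and leukocyte markers were left out, which kept 18 of the 46 cells, while in the Dll1- tumor it stayed between 1.87 and 2.99 under every alternative run. Cxcl13 and Apoe were found together in 7 of the 46 and 11 of the 45 cells, and neither was found in 22 and 18, so the working name covers a minority of the cells that the rule chose.

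The cells carried fibroblast markers, which the gate had partly required. Col3a1, Dcn and Lum, all used by the gate, were detected in every cell of the group. The 7 fibroblast markers summed to 49416 and 33511 CPM in the Cxcl13-set fibroblasts, against 43624 and 24549 CPM in the other fibroblasts. Markers of other cells were scarce. The 7 pan-leukocyte and lymphocyte markers came to 4 UMIs in the Dll1+ and 0 in the Dll1- cells, with Ptprc, Cd3e, Cd3d, Ms4a1 and Nkg7 at 0 in both. The 7 macrophage markers came to 3 and 2 UMIs, with Adgre1, C1qb and Fcer1g at 0. The endothelial markers summed to 35.5 and 50.4 CPM, with Emcn and Cldn5 at 0 (Cdh5 was held at 0 by the gate), and the mural markers to 26.1 and 26.4 CPM, with Cspg4 and Myh11 at 0. Of the adipocyte markers Adipoq, Plin1, Lep, Cidec and Retn were at 0 in both tumors. The remaining one, Car3, had 0 UMIs in the Dll1+ and 7 in the Dll1- cells (16.8 CPM, in 2 cells), against 2.51 and 0.173 CPM in the other fibroblasts. Only the epithelial markers were frequent, at 1675 and 2439 CPM over 7 genes, and they were as frequent in the other fibroblasts (1567 and 2875 CPM), against 7862 and 12178 CPM in epithelial cells.

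Against the other fibroblasts, 31 of 2944 genes with enough counts were at least 2-fold higher in both tumors (1.05%) and 31 were at least 2-fold lower (1.05%). The rule itself accounts for 5 of the higher and 4 of the lower genes. A gene needed at least 50 CPM in 1 of the sums compared. The 12 highest outside the rule held homeostatic chemokines, acute phase genes, a stromelysin and cytokine receptors. They were Saa3, Rasl11a, Ccl19, Mmp3, Chl1, Rarres2, Cpxm1, Lifr, Cxcl12, Fabp4, Hp and Il1r1. No single cell gave over 35.5% of the UMIs of any of these 12 genes in either tumor.

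**Figure D1:**
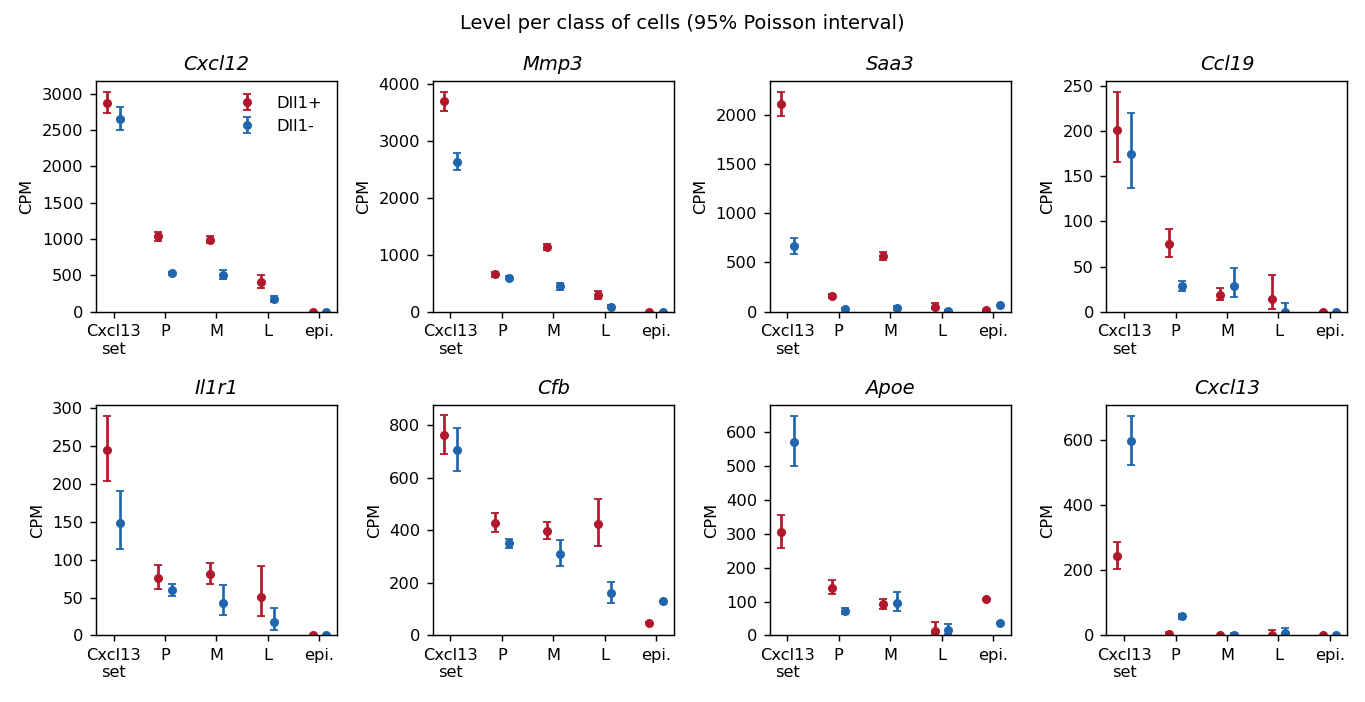
Summed levels (CPM, y axis) of 8 genes in the Cxcl13-set fibroblasts, in fibroblasts led by the P, M and L sets and in epithelial cells (epi.), with 1 point per tumor and 95% Poisson intervals. Cxcl12, Mmp3, Saa3 and Ccl19 were highest in the Cxcl13-set fibroblasts of both tumors, with Cxcl12 at 2876 and 2651 CPM.

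Cxcl12, the chemokine ligand of CXCR4 that retains lymphocytes and progenitor cells in stroma, was found in nearly every cell (97.8% and 100%, or 97.8% and 86.4% after thinning) and in 2.38% and 1.25% of epithelial cells. Per 10000 UMIs of a cell it ranged from 0 over a median of 26.9 to 91.8 in the Dll1+ and from 0.342 over 26.8 to 107 in the Dll1- tumor. Its summed level was 2876 CPM against 1032 CPM in the other Dll1+ fibroblasts, a log2 ratio of 1.48 (1.39 to 1.56). In the Dll1- tumor it was 2651 against 529 CPM, a log2 ratio of 2.32 (2.22 to 2.43). Unlike Cxcl13, it was thus spread over the whole group, and its median cell was the same in both tumors to within 1 UMI per 10000.

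Ccl19, a ligand of CCR7 that guides T cells and dendritic cells in lymph nodes, stood at 202 (165 to 243) CPM in Dll1+ and 175 (137 to 220.4) CPM in Dll1- cells, against 47.9 and 33.2 CPM in the other fibroblasts. It was detected in 60.9% and 48.9% of the cells, and in 0.0390% and 0.0222% of the epithelial cells. After thinning the shares were 33.3% and 27.3%. Ccl19 has near-identical copies in the mouse genome, so its counts are uncertain. Its ratios were 2.05 (1.72 to 2.42) and 2.37 (1.99 to 2.80).

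Of the 14 genes listed for the stroma of lymphoid organs 9 were measured (at least 30 UMIs), and 6 of them were at least 1.5-fold higher in both tumors, with 0 lower. Over all 11346 genes measured in this way, 2.79% were higher and 7.32% lower. The median log2 ratio of the list was 0.87 in the Dll1+ and 0.78 in the Dll1- tumor, beside -0.11 and -0.07 for all genes. Besides Cxcl12 and Ccl19 the 6 were Icam1 and Vcam1, adhesion molecules for leukocyte integrins, Tnfsf13b (BAFF), a survival factor of B cells, and Tnfsf11 (RANKL). Icam1 stood at 155 against 67.2 CPM and 168 against 97.4 CPM. Tnfsf13b stood at 37.3 against 20.1 CPM in the Dll1+ and 67.2 against 9.51 CPM in the Dll1- tumor, so it was further apart in the latter. Vcam1 was higher than in the other fibroblasts as a whole (237 against 137 and 103 against 62.4 CPM), but the M-set fibroblasts held 236 and 187 CPM. Tnfsf11 was found in 4 cells of each tumor, and 1 cell gave 78.6% of its Dll1+ UMIs. Its Dll1+ ratio of 2.59 went to 0.58 without that cell. The listed genes that were not measured were Ccl21a, another lymph node chemokine, Bst1, Cr2, Il7 and Madcam1. Of these, Ccl21a, Bst1 and Cr2 had 0 UMIs in the Cxcl13-set fibroblasts of both tumors. Il7 and Madcam1 had 0 UMIs in those of the Dll1+ tumor.

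Most other chemokines did not pass 1.5-fold in both tumors. Of 15 CXC and CC chemokines 14 were measured, and 3 were higher in both tumors (Cxcl5, Cxcl12 and Ccl19) and 1 lower (Cxcl9, a chemokine induced by interferon gamma). Cxcl5, a neutrophil chemokine, came from few cells: 1 cell gave 54.1% of its UMIs in the Dll1+ and 100% in the Dll1- tumor. Cxcl14 was at 1401 and 1467 CPM in the Cxcl13-set fibroblasts, below the 1956 and 2004 CPM of the M set and far above the 178 and 83.6 CPM of the P set. The medians of the list were 0.24 and 0.33.

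Acute phase and innate defence genes were the other main group. Of 8 listed, 7 were measured, 4 were higher in both tumors (Saa1, Saa3, Hp and Ptx3) and 0 lower, with medians of 1.23 and 0.67. Saa3, a serum amyloid A protein induced in inflamed stroma, ranked first outside the rule. It stood at 2104 (1983 to 2231) against 460.0 CPM in the Dll1+ and 663 (587 to 746) against 50.2 CPM in the Dll1- tumor, log2 ratios of 2.19 and 3.70. Its counts came from a fraction of the cells: 45.7% and 44.4% had a UMI (40.0% and 31.8% after thinning, and 3.71% and 9.62% of epithelial cells), with a median of 0 and highest values of 245 and 75 per 10000. Serum amyloid genes are near-identical, so reads can be split between them. Hp, haptoglobin, which binds free haemoglobin, stood at 989.7 against 361 CPM and 463 against 148 CPM. Ptx3, a pattern recognition protein, stood at 1344 against 574 CPM and 946 against 592 CPM. Saa1 was higher in epithelial cells (298 and 564 CPM) than in the Cxcl13-set fibroblasts (129 and 413 CPM), and 1 Dll1- cell gave 62.8% of its UMIs. Without the highest cell of each tumor the Saa1 ratio of the Dll1- tumor went from 0.95 to -0.43. Lcn2, an iron-sequestering defence protein, did not pass 1.5-fold in either tumor, with 1815 against 1499 CPM and 3889.6 against 3862 CPM, and epithelial cells held 7571 and 12892 CPM.

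Several complement genes were higher too. Of 9 measured, 4 were at least 1.5-fold higher in both tumors, among them C1ra, C3 and Cfb, 1 was lower (Cd55), and the medians were 0.68 and 0.72. C3, the central component of the cascade, stood at 2551 against 1046 CPM in the Dll1+ and 3417 against 2262 CPM in the Dll1- tumor. Cfb, which forms the alternative pathway convertase with C3b, stood at 762 against 439 CPM and 706 against 338 CPM. Cd55, the membrane-bound decay accelerator of the convertase, went the other way, with 50.4 against 185 CPM and 98.4 against 268 CPM. When only the 4 classes led by 1 set were compared, 7 of the 9 complement genes were highest in the Cxcl13-set fibroblasts of both tumors, as were 7 of the 9 lymphoid stroma genes, beside 7.3% of all genes.

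Receptors and other secreted proteins filled the rest of the 12. Il1r1, the signalling receptor of interleukin-1, stood at 245 against 78.7 CPM and 149 against 55.0 CPM and was found in 87.0% and 55.6% of the cells (37.8% and 20.5% after thinning, and 0.871% and 1.09% of epithelial cells). Lifr, the receptor of leukemia inhibitory factor, stood at 105 against 30.3 CPM and 57.6 against 18.3 CPM. Rarres2 (chemerin), which draws macrophages and dendritic cells through CMKLR1 and acts as an adipokine, stood at 2784 against 769 CPM and 2704 against 700.1 CPM. Those ratios, 1.86 (1.77 to 1.95) and 1.95 (1.85 to 2.04), were close in the 2 tumors. Mmp3 (stromelysin 1) stood at 3695 against 996 CPM and 2636 against 620.2 CPM, detected in 97.8% and 93.3% of the cells and in 1.52% and 1.19% of epithelial cells. Chl1, a neural cell adhesion molecule, was at 484 against 132 CPM and 343 against 86.6 CPM, and Cpxm1, a secreted carboxypeptidase-like protein, had ratios of 1.66 and 2.23.

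Signalling lists that could run with such genes did so in part only. Of 9 NF-kB feedback genes 1 was higher in both tumors (Birc3, 87.8 against 37.6 CPM and 81.6 against 43.1 CPM), with medians of 0.48 and 0.00. Of 9 measured cytokines 1 was higher (Tnfsf13b) and 2 lower (Tslp and Il34), with medians of 0.55 and 0.22. Il6 stood at 271 against 115 CPM in the Dll1+ but 146 against 129 CPM in the Dll1- tumor, so it passed 1.5-fold in 1 tumor only, and the difference between tumors was not tested. Of 12 interferon response genes 0 were higher and 1 was lower (Ifit3), and of 9 MHC genes 0 were higher and 2 lower (H2-Ab1 and Cd74). Of 11 immediate early genes, which dissociation can induce, 0 passed 1.5-fold in both tumors in either direction, with medians of 0.42 and 0.19. Among the 4 classes, 5 of the 11 (Jun, Junb, Hspa1b, Dusp1 and Zfp36) were highest in the Cxcl13-set fibroblasts of both tumors, beside 7.3% of all genes. The median share of mitochondrial UMIs was 3.41% and 2.60% in these cells, against 3.05% and 1.69% in all fibroblasts, and the part of either in the results above was not tested. Of the 10 cell cycle genes 2 were lower (Top2a and Cdk1), of 10 hypoxia genes 1 (Slc2a1) and of 10 fibroblast genes outside the gate 1 (Mfap5). Of 6 measured nerve-associated genes 2 were lower (Slc2a1 and Itgb4), and of 4 measured hair follicle genes 2 (Inhba and Prdm1). In any of these lists 0 were higher, beside 7.32% of all genes lower and 2.79% higher. Some of these calls rest on very few counts: in the Dll1+ cells Inhba had 0 UMIs, and Prdm1 and Itgb4 had 1 each.

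**Figure D2:**
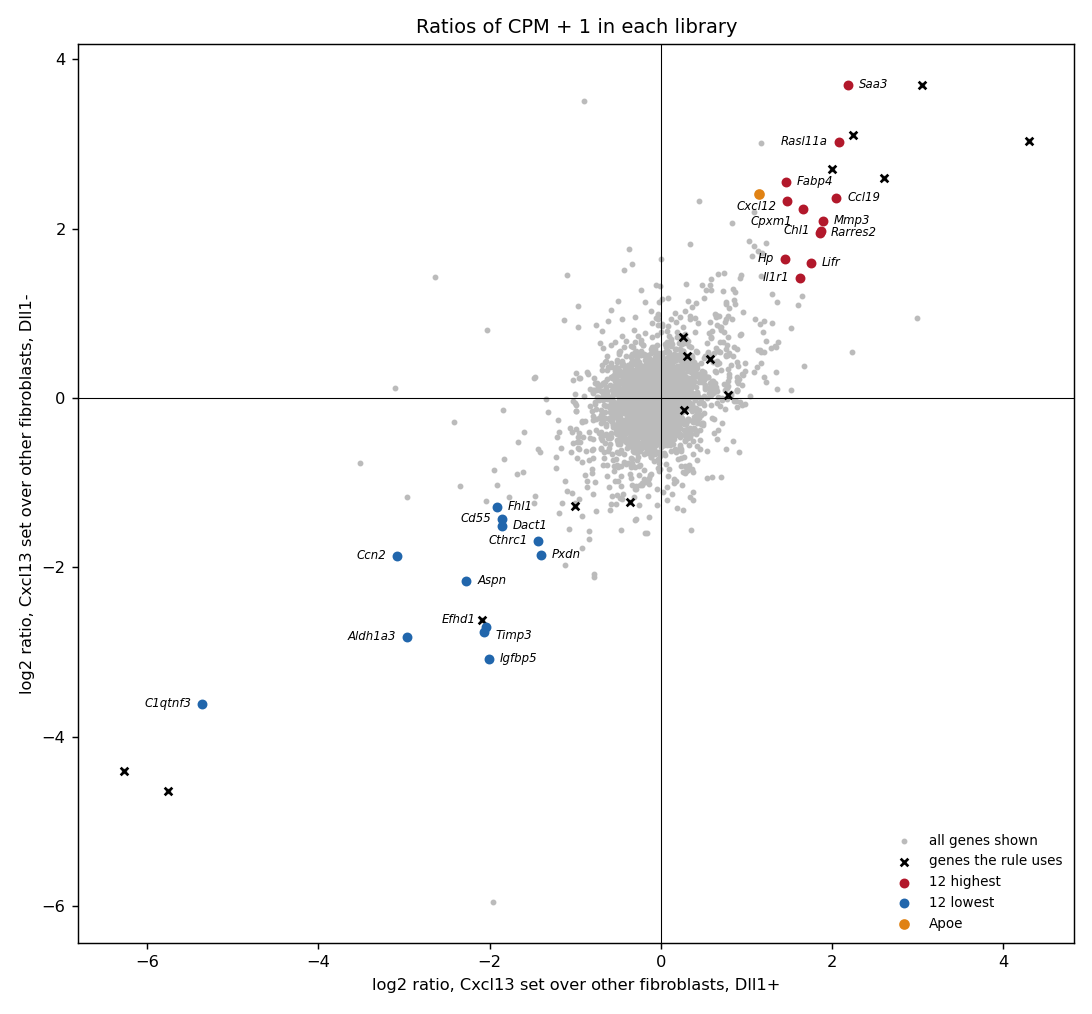
Each point is a gene, placed by its log2 ratio of the Cxcl13-set over the other fibroblasts in the Dll1+ (x axis) and the Dll1- tumor (y axis), with the rule's own genes and the 12 highest and 12 lowest others marked. Saa3 lies furthest to the upper right of the genes outside the rule (2.19 and 3.70) and C1qtnf3 furthest to the lower left (-5.36 and -3.61).

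Lipid genes gave a mixed picture. Of 12 lipoprotein and cholesterol transport genes 2 were higher in both tumors, Apoe and Lpl, and 0 lower, with medians of 0.41 and 0.50. Lpl, the lipase that releases fatty acids from lipoproteins, stood at 265 against 147 CPM and 499 against 204 CPM. Of 8 measured oxysterol and cholesterol synthesis genes, 1 was higher (Sqle, squalene epoxidase, 63.5 against 32.8 CPM and 45.6 against 19.5 CPM). The medians of that list were 0.45 and 0.57. Among the 4 classes, 4 of the 8 (Cyp39a1, Hmgcs1, Sqle and Insig1) were highest in the Cxcl13-set fibroblasts of both tumors, beside 7.3% of all genes. Ch25h, which makes the oxysterol that Cyp7b1 converts into a ligand of the B cell receptor GPR183, had 0 UMIs in the Cxcl13-set fibroblasts of both tumors. Of 9 adipogenic genes 3 were higher (Cebpa, Fabp4 and Gdf10), although the medians of the list, -0.11 and 1.24, lay on opposite sides of 0. Fabp4, a fatty acid carrier of adipocytes and endothelium, stood at 93.4 against 33.3 CPM and 132 against 21.6 CPM. Gdf10, a BMP family ligand, stood at 134 against 63.7 CPM and 132 against 40.6 CPM.

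The 12 genes lowest against other fibroblasts included matrix and matrix-bound proteins. C1qtnf3, a secreted adipokine of the C1q and TNF family, had 3 and 2 UMIs in the Cxcl13-set fibroblasts, 5.60 and 4.80 CPM, against 269.7 and 70.0 CPM in the others, log2 ratios of -5.36 (-7.87 to -4.04) and -3.61 (-6.92 to -2.0). Most of that gene was in the M-set fibroblasts, at 600.2 and 638 CPM. Ccn2 (CTGF), a target of TGF-beta and YAP, stood at 63.5 against 546 CPM and 55.2 against 204 CPM, and the M set held 1095 and 1093 CPM. Igfbp5, an insulin-like growth factor binding protein, stood at 416 against 1672 CPM and 209 against 1779 CPM. Timp3, an inhibitor of metalloproteinases bound to matrix, stood at 218 against 914 CPM and 60.0 against 415 CPM, the opposite of Mmp3. Aspn (asporin), a small proteoglycan that binds TGF-beta, stood at 67.2 against 328 CPM and 45.6 against 207 CPM. Aldh1a3, Efhd1, Dact1, Cd55, Cthrc1, Pxdn and Fhl1 completed the 12, with log2 ratios from -2.97 to -1.40 in the Dll1+ and from -2.82 to -1.29 in the Dll1- tumor.

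As lists, matrix genes were rarely higher in both tumors, and several list medians lay on opposite sides of 0 in the 2 tumors. Of 15 fibrillar collagen and matrix genes 0 were higher in both tumors and 4 lower (Col8a1, Col11a1, Fbn1 and Eln), with medians of -0.64 in the Dll1+ and 0.23 in the Dll1- tumor. None of the 15 was highest in the Cxcl13-set fibroblasts among the 4 classes in either tumor. Of 10 basement membrane genes 0 passed in either direction, with medians of -0.24 and 0.27. Among the 4 classes 0 of these 10 were highest in the Cxcl13-set fibroblasts of the Dll1+ and 5 in those of the Dll1- tumor, beside 21.7% and 23.1% of all genes. Of 9 proteoglycans 3 were lower (Fmod, Aspn and Mgp). Of 15 remodelling genes 1 was higher (Mmp3) and 2 lower (Mmp13 and Timp3), with medians of -0.09 and 0.13. Of 10 adventitial genes 1 was lower (Sema3c), and Pi16, the defining gene of adventitial fibroblasts, stood at 1246 against 1538 CPM and 1052 against 1847 CPM, with 89.1% and 77.8% of the cells positive, beside 2.21% and 3.11% of epithelial cells. The Cxcl13-set fibroblasts thus kept Pi16 at a level between those of the P set (2365 and 2356 CPM) and the M set (681 and 494 CPM).

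Among developmental pathways, the Wnt and Notch lists had medians below 0 in both tumors. Only 3 of the Wnt and 2 of the Notch genes had 30 UMIs in the Cxcl13-set fibroblasts themselves, so both medians rest mostly on low counts. The 3 Wnt genes were Sfrp1, Sfrp2 and Sfrp4. Among the 4 classes all 3 were highest in the Cxcl13-set fibroblasts of the Dll1- tumor, and Sfrp4 also in the Dll1+ tumor. Of 12 measured Wnt genes 0 were higher in both tumors and 3 lower (Wnt2, Wnt11 and Nkd2), with medians of -1.18 and -0.40. Wnt2, a canonical ligand, had 1 UMI in the Cxcl13-set fibroblasts of each tumor, 1.87 and 2.40 CPM, against 38.6 and 62.3 CPM, log2 ratios of -3.79 (-9.68 to -1.87) and -4.22 (-10.00 to -2.21). Of 7 Notch genes 3 were lower (Jag1, Hes1 and Heyl) and 0 higher, with medians of -1.15 and -0.64. Heyl had 0 UMIs in the Cxcl13-set fibroblasts of both tumors. In the Dll1- tumor that allows up to 7.20 CPM, more than the 2.25 CPM of the other fibroblasts, so no difference was detectable there at this depth. The same holds for Mmp13 (3.11 CPM) and Cd74 (1.90 CPM), both counted above among the lower genes and both at 0 UMIs in the Dll1- group. Of 12 TGF-beta genes 2 were lower (Tgfb1 and Ccn2). Tgfb1 stood at 24.3 against 51.4 CPM and, from 2 UMIs, 4.80 against 29.9 CPM. BMP genes split, with 2 higher, among them Id2, and 2 lower (Bmp2 and Id1) of 9. Of 14 growth factor genes 4 were lower (Igfbp3, Igfbp5, Igfbp6 and Nrg1) and 2 higher. The 2 were Fgf7 and Fgf10, fibroblast growth factors that signal to epithelium through FGFR2b. Fgf7 stood at 136 against 80.5 CPM and 84.0 against 44.6 CPM, and Fgf10 at 13.1 against 2.01 CPM and 19.2 against 5.71 CPM, from 5 and 7 cells.

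**Figure D3:**
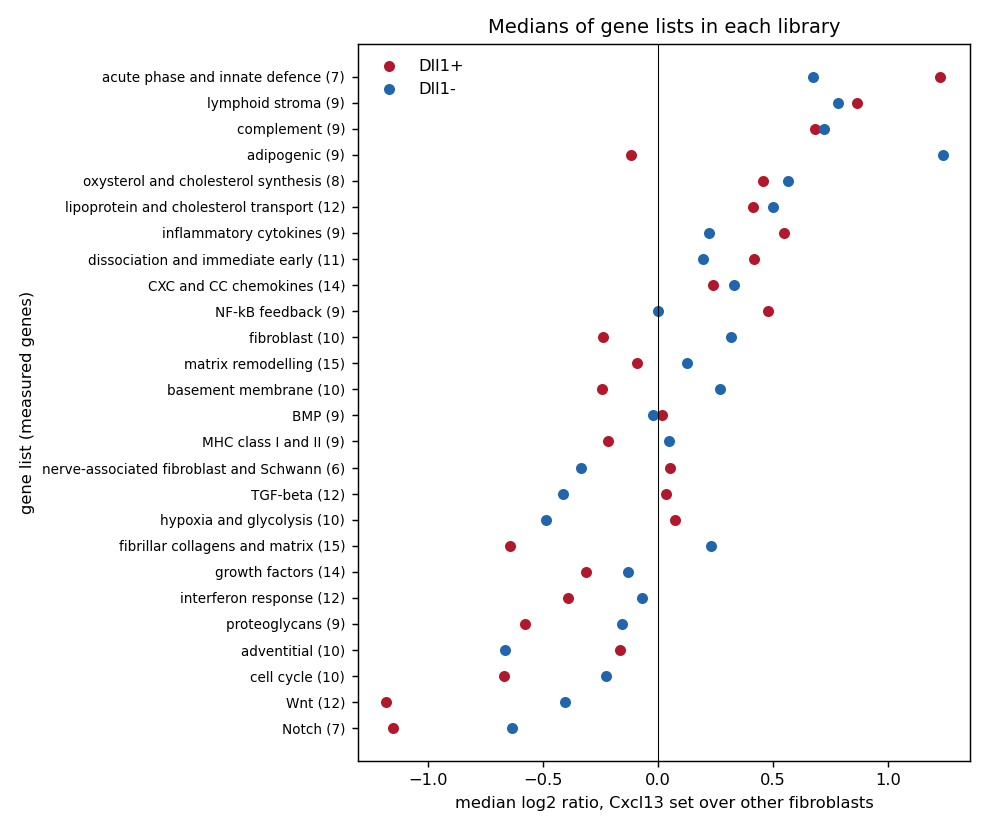
Median log2 ratio of each gene list (x axis), Cxcl13-set over other fibroblasts, with 1 point per tumor and the number of measured genes in brackets on the y axis. Lymphoid stroma, acute phase and complement lists lie above 0 in both tumors, as do the lipoprotein, oxysterol, cytokine, chemokine and immediate early lists. The Wnt and Notch lists lie below 0 in both, as do the cell cycle, adventitial, proteoglycan, growth factor and interferon lists.

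Since the other fibroblasts are a mixture, the group was also set against each of the P, M and L sets alone. Of 2546 genes at 50 CPM or more in the Cxcl13-set fibroblasts of both tumors, 37 (1.45%) were at least 1.5-fold above each of the other 3 sets in both tumors. They included all 12 of the highest genes already named, together with Apoe, Apod, Lpl, Cfb, Icam1, Birc3, Gdf10 and Saa1. Apod is a lipocalin of lipid transport. Also among the 37, and named after their values were seen, were Serpina3n, an acute phase protease inhibitor, and Il11ra1, the receptor of interleukin-11.

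All fibroblasts were also grouped by the number of Cxcl13-set genes detected. These groups include the Cxcl13-set fibroblasts and rest on the rule's own genes, so the values are a description. The fibroblasts had none of the 5 genes in 202 Dll1+ and 394 Dll1- cells, 1 in 113 and 177, 2 in 56 and 72, and at least 3 in 37 and 35. Over these 4 steps Cxcl12 stood at 719, 1153, 1810.0 and 2727 CPM in the Dll1+ and at 325, 654, 1397 and 2226 CPM in the Dll1- tumor. Mmp3 went from 626 over 1011 and 2111 to 3642 CPM and from 412 over 622 and 1722 to 2339 CPM. Both were higher at every step in both tumors. Ccl19 was level over the first steps of the Dll1+ tumor, at 38.0 and 34.3 CPM, and reached 89.1 and 229.8 CPM at the later ones. C3 went from 779 to 2715 CPM and from 1943 to 3510.0 CPM. Apoe had no such steps in the Dll1+ tumor below the last (110.4, 124, 131 and 462 CPM) and in the Dll1- tumor was highest at 2 genes (49.5, 98.0, 503 and 330.0 CPM). Depth moved with the steps, from a median of 8977 to 11355 UMIs per cell in the Dll1+ and from 6802 to 8434 in the Dll1- tumor, and its part was not tested.

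**Figure D4:**
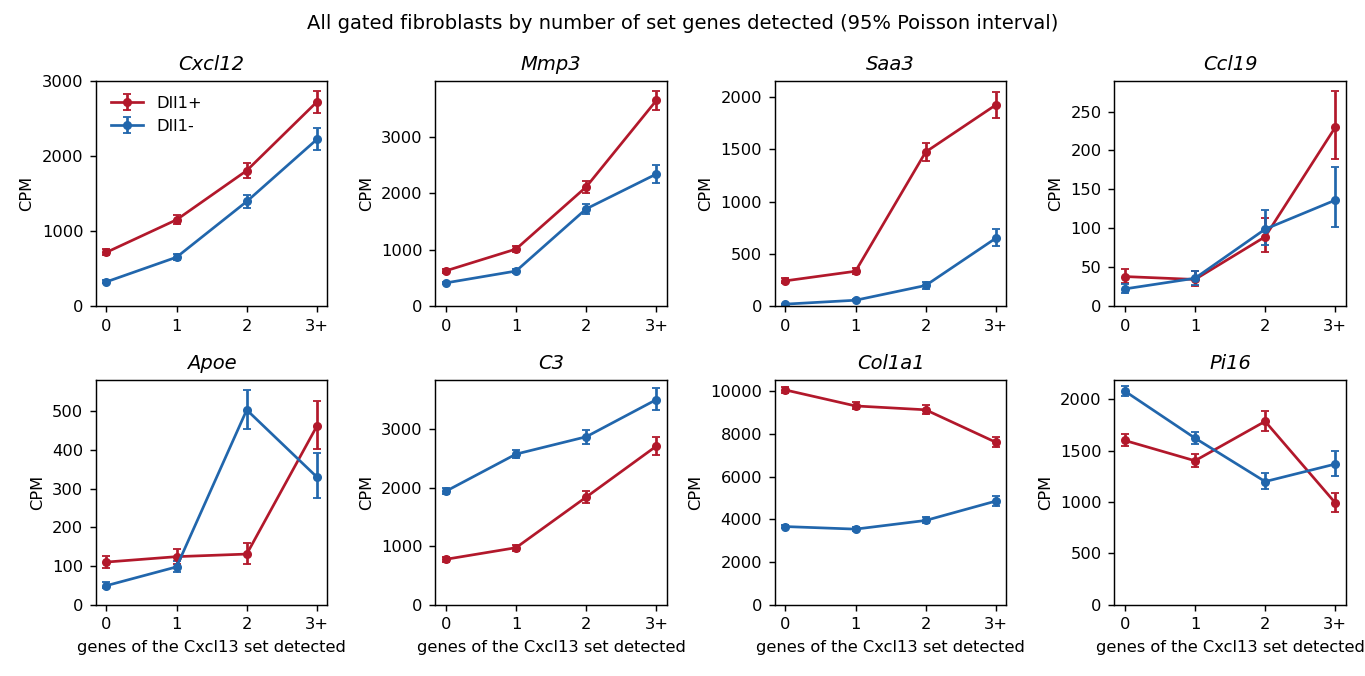
Summed levels (CPM, y axis) of 8 genes in all fibroblasts grouped by how many of the 5 Cxcl13-set genes were detected (x axis), with 1 line per tumor and 95% Poisson intervals. Cxcl12 and Mmp3 are higher at each step in both tumors, while Col1a1 goes down in the Dll1+ (10066 to 7615 CPM) and up in the Dll1- tumor (3665 to 4859 CPM).

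Within the group, levels are given for cells with and without a Cxcl13 UMI. There were 15 with and 31 without in the Dll1+ tumor, at median depths of 10324 and 10533 UMIs, and 15 with and 30 without in the Dll1- tumor, at 7741 and 7911.5 UMIs. Apoe stood at 680.2 CPM in cells with and 110.4 CPM in cells without Cxcl13 in the Dll1+, and at 858 and 455 CPM in the Dll1- tumor. Ccl19 stood at 411 and 93.4 CPM and at 367 and 97.8 CPM. Cxcl12 was higher in the cells with Cxcl13 too, 3511 against 2548 CPM and 4026 against 2094 CPM, as was C3, 3357 against 2135 CPM and 5701 against 2492 CPM. Saa3 was level in the Dll1+ tumor, 2128 against 2092 CPM, and Pi16 was lower with Cxcl13 in the Dll1+ (790.0 against 1481 CPM) and higher in the Dll1- tumor (1475 against 880.2 CPM). By cells, Apoe was found in 7 of the 15 with and 9 of the 31 without Cxcl13 in the Dll1+ tumor, and in 11 of 15 and 12 of 30 in the Dll1- tumor. The split is on a gene that the rule read, so cells on its 2 sides entered the group through different genes.

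Between the tumors, the Cxcl13-set fibroblasts had 108 of 3308 genes at least 2-fold higher in the Dll1+ (3.26%) and 84 lower (2.54%). The other fibroblasts had 4.07% higher and 1.36% lower. Many of the largest of these differences rested on single cells. Of the 12 genes highest in the Dll1+ cells, 5 had over 50% of their Dll1+ UMIs in 1 cell (Rrad, Mia, Rbp7, Pdlim3 and Cxcl5), and of the 12 lowest, 8 had over 50% of their Dll1- UMIs in 1 cell (Saa2, Reg3g, Muc15, Crabp1, Thrsp, Krt7, Crabp2 and Ube2c). Rrad, a small GTPase, had 119.5 CPM in the Dll1+ and 0 UMIs in the Dll1- cells, with 90.6% of the UMIs in 1 cell. Saa2 stood at 11.2 and 276 CPM, with 95.7% in 1 Dll1- cell.

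For the remaining genes no single cell gave over 50% of the UMIs in the tumor where the gene was higher. Some still lay near that limit: over the 12 genes highest in the Dll1+ cells, the median share of the highest cell was 47.9%. Cyp26b1, which degrades retinoic acid, was found in 18 Dll1+ cells (39.1%) and 1 Dll1- cell, at 95.2 and 2.40 CPM. Cemip, a hyaluronan-degrading protein, stood at 269 and 31.2 CPM, and the other fibroblasts differed likewise (112 and 10.7 CPM). Rnd1, a small GTPase that loosens adhesion, stood at 332 and 50.4 CPM, found in 54.3% and 22.2% of the cells and 47.5% and 22.1% of epithelial cells. Arc, Ndufa4l2, Gch1 and Lmcd1 were the remaining genes higher in the Dll1+ cells, at 78.4, 114, 50.4 and 91.5 CPM against 4.80, 9.60, 7.20 and 14.4 CPM. Higher in the Dll1- cells were Lrg1, an acute phase glycoprotein (35.5 and 187 CPM), the galectin gene Lgals7 (116 and 547 CPM), Spon1 and Adh1. Epithelial cells differed in the same direction for Lrg1 (165 and 341 CPM) and Lgals7 (395 and 1829 CPM), and the part of free epithelial RNA was not tested.

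**Figure D5:**
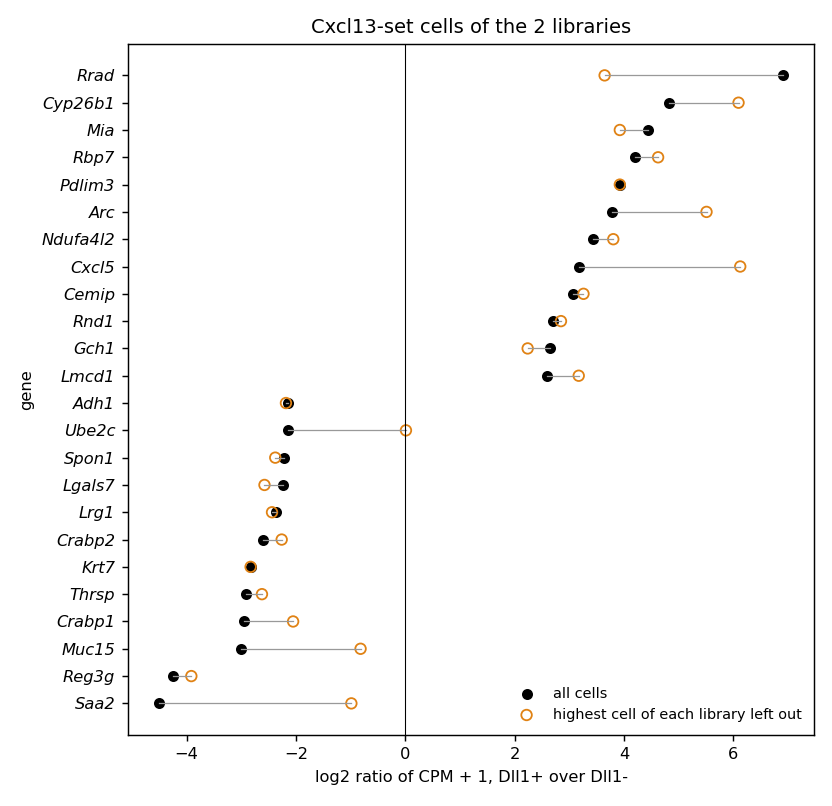
Log2 ratio of Dll1+ over Dll1- Cxcl13-set fibroblasts (x axis) for the 12 genes highest and the 12 lowest (y axis), from all cells of the group and without each gene's highest cell in each tumor. Rnd1 goes from 2.70 to 2.85 and Cemip from 3.07 to 3.26, while Saa2, the lowest, goes from -4.51 to -0.99, and Cyp26b1 and Cxcl5 move up because their only Dll1- cell is left out.

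Several genes that stood out against other fibroblasts were close between the tumors. Cxcl12 had a log2 ratio of 0.12 (0.01 to 0.23), Rarres2 of 0.04 (-0.07 to 0.16), Ccl19 of 0.20 (-0.24 to 0.65) and Cfb of 0.11 (-0.11 to 0.33). Complement genes were level as a list, with 0 of 9 higher and 1 (Cd55) lower in the Dll1+ cells, beside 10.9% and 9.06% of all genes. Acute phase genes were not: Saa3 had a ratio of 1.67 (1.48 to 1.86) and Hp of 1.09 (0.85 to 1.34), whereas Saa1, Lcn2 and Slpi were lower in the Dll1+ cells. Epithelial cells held more Saa1 and Lcn2 and differed in the same direction for both, as given above. So did the other fibroblasts for Lcn2, and 1 Dll1- cell gave most of the Saa1 UMIs. The part of free epithelial RNA was not tested. For Saa3 and Hp the other fibroblasts differed in the same direction, and for both by more, as their levels above show. No Saa3 UMI was found in 25 of the 46 Dll1+ and 25 of the 45 Dll1- cells. Of the cytokines Il6 (0.88), Lif (1.68) and Csf3 (0.84) were higher in the Dll1+ cells and Tnfsf13b (-0.83) lower. Apoe (-0.91, -1.21 to -0.62), Lpl (-0.91) and Cxcl13 (-1.29, -1.61 to -0.98) were lower in the Dll1+ cells. Cxcl13 was read by the rule, so its ratio only describes the cells chosen. It had no UMI in 31 of the 46 Dll1+ and 30 of the 45 Dll1- cells, and a few cells held many, as given above. The Cxcl13 interval covers counting error only and leaves out this spread between cells. For Apoe the other fibroblasts went the other way, at 0.35.

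Of 13 measured fibrillar collagen and matrix genes 2 were at least 1.5-fold higher in the Dll1+ cells (Col1a1 and Col1a2) and 0 lower. Col1a1 was 0.82 higher (0.75 to 0.90) in the Dll1+ Cxcl13-set fibroblasts and 1.38 higher in the other Dll1+ fibroblasts. Of 10 basement membrane genes 4 were lower in the Dll1+ cells by at least 1.5-fold and 0 were higher: Col4a1 (-0.89), Col4a2 (-0.73), Col15a1 (-1.42, -2.0 to -0.88) and Col18a1 (-0.82). In the other fibroblasts Col4a1 stood at 0.13 and Col15a1 at 0.70, on the other side of 0. Whether these differences between the groups of fibroblasts exceed the spread between tumors was not tested.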

How the data were processed

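The authors deposited unnormalized UMI counts for each gene and barcode. The file headers name Cell Ranger 4.0.0, and the submitters' processing notes name mm10. No annotation release was found there; positions were taken from GENCODE M21, which held 32235 of 32285 gene IDs. Ccl19 and Ccl21a each stood under 2 IDs, and the ID on chr 4 was used. Barcodes needed 1000 UMIs, 500 genes and at most 20% mitochondrial UMIs. Doublets were not removed, since scrublet in scanpy 1.11.5 marked 0 and 0 barcodes by its automatic threshold; an alternative removed the highest scores. Epithelial cells, the background for shares, had at least 2 UMIs of Epcam and of Krt8 and fewer than 3 genes of the fibroblast gate.

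Counts were summed per class and library and scaled to CPM, and ratios were taken of CPM plus 1. Levels have exact Poisson intervals, shares exact Clopper-Pearson intervals and ratios exact conditional binomial intervals, at 95% and for counting error only. Shares were repeated after thinning each cell to 2000 UMIs. With 1 library per tumor no test was run. Named are the genes of the rule, genes of 27 lists, the 12 highest and 12 lowest against other fibroblasts (ranked by the tumor with the ratio nearer 0) and the 12 highest and 12 lowest between tumors. The last 2 groups needed 50 CPM in 1 sum and left out mitochondrial, ribosomal, unnamed and Y-linked genes and genes over 5 times higher in epithelial cells. A list gene was measured with 30 UMIs over both tumors and counted at 1.5-fold in both. The cells and the lists were chosen with earlier results of these data known. Alternatives included other filters, pseudocount, rule margins, each set gene left out and TMM scaling in edgeR 4.0.16. Sums were made in Python 3.11.15 with numpy 2.4.6, pandas 2.3.3 and scipy 1.17.1 and tested on simulated data, and figures drawn with matplotlib 3.10.9. Promoters came from RefSeq (GRCm38.p6). Values of a few listed genes are not reported here.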

Additional observations from a re-analysis of the deposited data

Results flagged for a closer look

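Abca1, Spon1 and Ube2c lay on opposite sides of the other fibroblasts in the 2 tumors, with counting intervals that left out 0 in both; the difference between tumors was not tested. Abca1, the cholesterol efflux transporter, had a log2 ratio of 0.77 in the Dll1+ (101 against 58.9 CPM) and -0.60 in the Dll1- tumor (60.0 against 91.3 CPM). Spon1, a matrix protein, had -2.64 in the Dll1+ (13.1 against 86.7 CPM, UMIs in 4 cells) and 1.42 in the Dll1- tumor (64.8 against 23.5 CPM, UMIs in 11 cells). Ube2c, a mitotic ubiquitin-conjugating enzyme, had -2.03 in the Dll1+ (14.9 against 63.9 CPM) and 0.80 in the Dll1- tumor (69.6 against 39.6 CPM), where 1 cell gave 89.7% of its UMIs.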

How the results depend on the processing

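No paired analysis was possible because each group has 1 library. The share of fibroblasts ranged from 5.88% to 11.8% in the Dll1+ and from 2.80% to 7.95% in the Dll1- tumor. It was 5.88% and 2.80% with the Cxcl13 set ahead by at least 2 genes, a stricter rule, and otherwise moved only when a set gene was left out: Crocc2 (8.33% in the Dll1+ tumor), Col28a1 (3.98% in the Dll1-) and Cyp7b1 (8.33% and 4.72%). The Apoe ratio of the Dll1- tumor stayed above 0 in all 18 alternatives. It was 2.91 with the stricter rule, 1.87 after thinning to 2000 UMIs, 2.86, 2.65 and 2.68 without Barx2, Crocc2 and Col28a1, 2.16 without the highest cell and 2.99 against the P set alone. The Apoe ratio of the Dll1+ tumor was 0.84 without Cxcl13 in the set, 0.89 without Col28a1, 0.73 without the highest cell and -0.22 without fibroblasts that held 2 or more UMIs of epithelial, macrophage or leukocyte markers, which kept 18 and 17 cells; the cause was not tested.

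Genes 2-fold apart in both tumors numbered 31 higher and 31 lower. They numbered 48 and 67 at 20 CPM and 170 and 638 with no filter, which test more genes, and 49 and 53 against the P set. The lower ones were 48 after thinning, 57 without cells with foreign markers and 54 without each gene's highest cell. Between tumors, 108 and 84 genes in the Cxcl13-set fibroblasts became 300 and 237 with the stricter rule, 503 and 404 after thinning, 171 and 132 without Crocc2, 188 and 150 without Col28a1, 172 and 134 without Cyp7b1, 510 and 330 without cells with foreign markers, 453 and 324 at 20 CPM and 2424 and 1868 with no filter. The higher ones were 165 without Barx2, and the lower ones 153 without fibroblasts rich in epithelial markers. Settings with similar counts did not always keep the same genes. Of the 108 and 84 genes, 61 and 46 stayed with doublet scores removed, 66 and 56 with cells weighted alike, and 41 and 28 after thinning. Against the other fibroblasts, 25 of the 31 higher and 17 of the 31 lower genes stayed after thinning. The cause of these differences was not tested. Leaving out highest cells or epithelial-rich fibroblasts and comparing with the P set were chosen after seeing the data.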
